A study of Mus musculus with 11 samples.

Results

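Drp1, the product of Dnm1l, and 9 genes whose products recruit it to mitochondria or work beside it were followed in mouse C2C12 cells in which Drp1 was knocked down. The 10 genes were Dnm1l, Mff, Fis1, Mief1, Mief2, Mtfp1, Mtfr1l, Gdap1, Dnm2 and Spire1, picked by symbol from the 15113 genes of the deposited count table. C2C12 cells are mouse muscle precursors that stop dividing in low serum and join into myotubes. The study asked how Drp1 bears on substrate oxidation and calcium dynamics in skeletal muscle, per its title. The 5 shDRP1 libraries came from cells with a short hairpin RNA against Drp1, and the 6 shRandom libraries from cells with a random hairpin. All 11 libraries were labelled as early stage myotubes at passages 2 to 5, and the labels do not say whether the libraries came from separate cultures or how many hairpins or clones were used, so the p-values rest on the variation among these libraries, which may be technical. Libraries were made with a 3' tag method, in which each transcript is read near its poly(A) tail, and total counts ran from 12277622 to 23082617.

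Mitochondria divide when Drp1, a GTPase of the dynamin family, is drawn from the cytosol onto the outer membrane, assembles into a ring and constricts the organelle. Receptors anchored in the outer membrane (Mff, Fis1 and the MiD proteins encoded by Mief1 and Mief2) hold Drp1 there, while actin filaments and the endoplasmic reticulum narrow the site beforehand. Division is balanced by fusion, and myoblasts remodel their mitochondrial network as they form myotubes.

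The myotube label was checked first. All 10 myotube markers were lower in shDRP1 libraries (edgeR quasi-likelihood test with Benjamini-Hochberg adjustment over 13025 genes), and none was at 0. Their summed level was 150.0 to 210.0 CPM (read counts scaled to the size of each library) in shDRP1 libraries and 11069 to 12371 CPM in shRandom libraries. Myogenin (Myog), which drives differentiation, averaged 6.58 ± 2.79 CPM in shDRP1 libraries (SD, n = 5) and 1337 ± 199.9 CPM in shRandom libraries (SD, n = 6). Mymk, needed for myoblast fusion, averaged 5.33 CPM in shDRP1 and 1118 CPM in shRandom libraries, and the averages of its partner Mymx were 1.08 and 248.0 CPM. The log2 fold changes of the other 7 markers were -6.93 for Acta1, -7.06 for Tnnc1, -6.64 for Ckm, -6.20 for Myh3, -4.39 for Myh8, -5.31 for Ttn and -3.34 for Des. Smooth muscle markers were higher for 3 of the 4 with a row, and Smtn was not called (edgeR adjusted p = 0.496). Their summed level was 8196 to 9968 CPM in shDRP1 and 2680 to 3220 CPM in shRandom libraries, most of it Acta2. Fibroblast markers were higher for 3 of the 4 with a row, and Pdgfra was not called (edgeR adjusted p = 0.597). Their sums were 3429 to 5763 CPM in shDRP1 and 1352 to 1762 CPM in shRandom libraries, most of it Col1a1. Lum, 1 of the 3 called higher, was low, at 0.387 to 1.24 CPM in shDRP1 and 0.258 to 0.645 CPM in shRandom libraries, with overlap. By the same test 33.9% of all genes tested were higher. Endothelial and epithelial markers had no row in the table, nor did Ptprc, Adgre1, Adipoq, Plin1 and Cfd, while Cd68 was at 0.309 to 0.876 CPM in shDRP1 and 0.636 to 1.08 CPM in shRandom libraries. The adipocyte marker Fabp4, too low to be tested, was at 0.464 to 0.931 CPM in shDRP1 and 0 to 0.0902 CPM in shRandom libraries, with no overlap. The shDRP1 libraries therefore do not carry the marker levels of the myotube label. These marker differences run with every difference between the groups given here, and their part in the results was not tested.

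All 10 fission genes passed the filter on low counts. In shDRP1 libraries 8 were lower, 1 (Gdap1) was higher and 1 (Mief1) did not pass an adjusted p of 0.05. Dnm1l is the target of the hairpin, and Gdap1 passed the filter through its level in shDRP1 libraries. Neither call is free evidence about the group, yet both genes are in the counts and the median given here. Of all genes tested, 33.3% were lower and 33.9% were higher by the same rule, so a difference past the threshold was the common case in this comparison. The median log2 fold change was -0.78 over the fission genes and 0.03 over all genes tested. The CPM values of the groups did not overlap for 7 fission genes, 6 of them lower in shDRP1 and 1 higher, against 25.4% and 23.5% of all genes tested, and 48.9% in either direction. In bulk samples fewer cells of a type and less RNA per cell cannot be told apart.

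**Figure D1:**
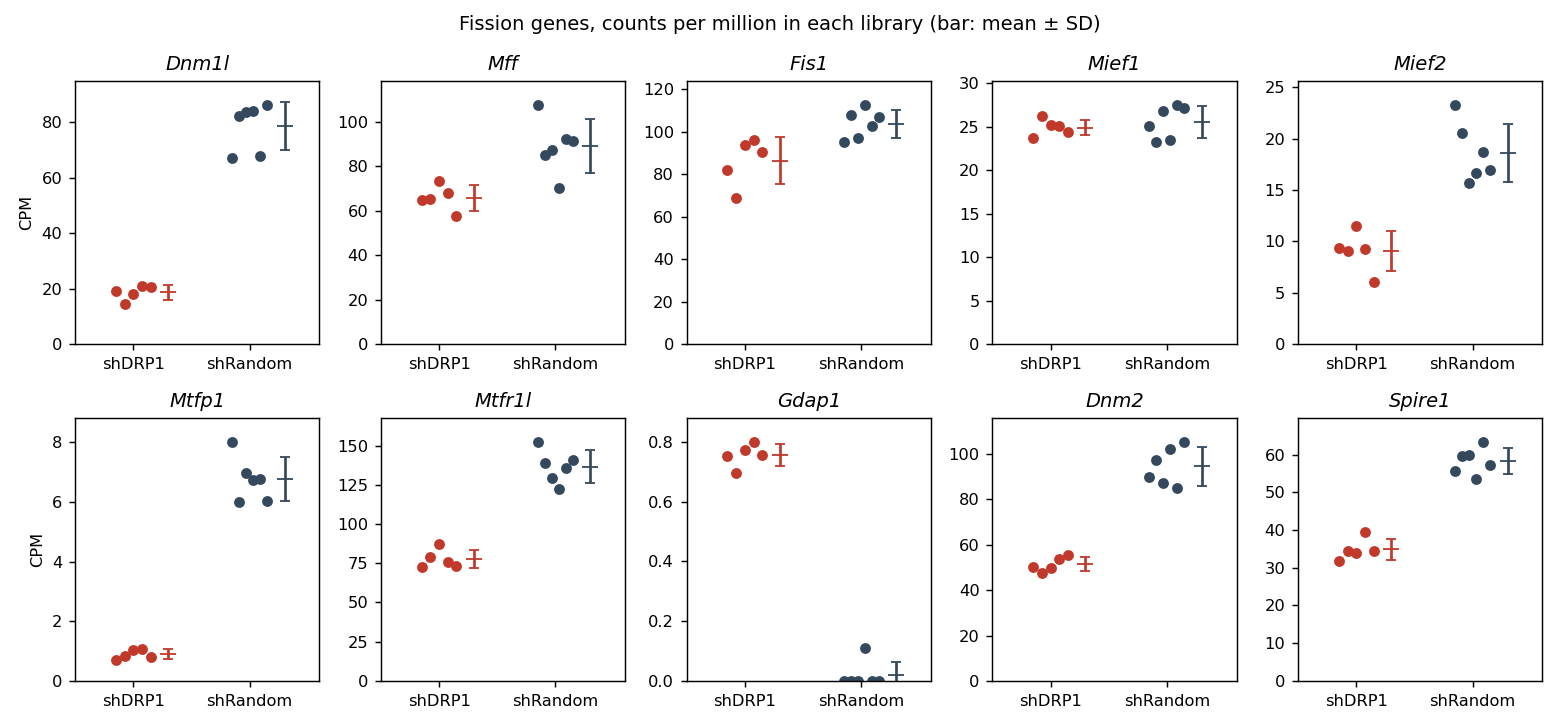
CPM of each fission gene in every library, on a linear axis from 0; red points are shDRP1 libraries, dark points are shRandom libraries, and the bars give mean and SD. Dnm1l lies between 14.5 and 21.0 CPM in shDRP1 libraries and between 67.1 and 86.3 CPM in shRandom libraries, while the groups overlap for Mief1.

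Promoter sequences are shown for Dnm1l, for Mtfp1, the fission gene that fell furthest, and for Mief1 and Mief2, a paralog pair of which Mief2 was lower in shDRP1 libraries and Mief1 did not pass the test. They come from RefSeq on GRCm38.p6 and hold 300 bases, from 250 before to 50 after the start site, read 5' to 3' along the gene. The Dnm1l window is chr16:16358982-16359281 on the minus strand, the Mtfp1 window chr11:4095382-4095681 on the minus strand, the Mief1 window chr15:80233830-80234129 on the plus strand and the Mief2 window chr11:60728148-60728447 on the plus strand. Capitals mark the E-box CANNTG, the letters bound by myogenic and many other helix-loop-helix factors, and the GC box GGGCGG, on either strand.
Dnm1l: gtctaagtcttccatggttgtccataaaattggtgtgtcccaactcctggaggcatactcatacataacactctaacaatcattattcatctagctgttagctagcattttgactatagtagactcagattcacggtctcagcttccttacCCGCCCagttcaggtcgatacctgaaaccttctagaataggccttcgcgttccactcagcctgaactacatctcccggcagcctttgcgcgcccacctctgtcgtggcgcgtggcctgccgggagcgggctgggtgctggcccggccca
Mtfp1: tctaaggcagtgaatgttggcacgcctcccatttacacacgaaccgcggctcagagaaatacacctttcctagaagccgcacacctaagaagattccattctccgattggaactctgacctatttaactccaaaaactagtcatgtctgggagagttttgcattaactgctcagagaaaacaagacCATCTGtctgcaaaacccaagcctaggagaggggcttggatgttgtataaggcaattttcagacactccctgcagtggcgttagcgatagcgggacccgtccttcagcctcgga
Mief1: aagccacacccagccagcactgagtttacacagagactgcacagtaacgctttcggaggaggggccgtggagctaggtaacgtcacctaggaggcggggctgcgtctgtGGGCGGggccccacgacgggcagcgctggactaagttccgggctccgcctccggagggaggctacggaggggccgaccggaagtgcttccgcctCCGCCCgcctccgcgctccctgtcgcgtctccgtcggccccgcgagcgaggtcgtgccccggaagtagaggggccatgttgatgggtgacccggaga
Mief2: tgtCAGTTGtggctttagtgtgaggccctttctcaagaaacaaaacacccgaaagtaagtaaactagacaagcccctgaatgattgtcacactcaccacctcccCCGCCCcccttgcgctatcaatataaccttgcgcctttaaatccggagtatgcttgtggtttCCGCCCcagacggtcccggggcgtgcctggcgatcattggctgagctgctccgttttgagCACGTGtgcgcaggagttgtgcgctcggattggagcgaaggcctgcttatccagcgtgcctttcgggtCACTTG

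Promoter windows were matched for 8 of the 10 fission genes. CANNTG was found in 4 of these 8 windows (Mff, Mief2, Mtfp1 and Dnm2) and in 72.3% of 32851 RefSeq promoter windows of the same length. GGGCGG was found in 6 of 8 and in 35.7% of all windows. The Mief2 window held 3 E-boxes and 2 GC boxes, the Mief1 window no E-box and 2 GC boxes, the Mtfp1 window 1 E-box and no GC box, and the Dnm1l window no E-box and 1 GC box. CAGCTG, the form of the E-box preferred by myogenic factors, which overlaps CANNTG, was in none of the 8 windows and in 16.3% of all windows. These are matches of letters, and no binding was measured.

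Dnm1l, the target of the hairpin, was at 19.1, 14.5, 18.1, 21.0 and 20.6 CPM in shDRP1 replicates 1 to 5. In shRandom libraries its lowest value was 67.1, its median 83.0 and its highest 86.3 CPM. Every shDRP1 library was below every shRandom library. The mean was 18.7 ± 2.58 CPM in shDRP1 (SD, n = 5) and 78.6 ± 8.63 CPM in shRandom libraries (SD, n = 6), so that 23.7% of the shRandom mean was left. The log2 fold change was -2.07 (SE 0.11, edgeR adjusted p = 2.7e-10), with a 95% interval of 20.4% to 27.8% of the shRandom level. A total of 1668 reads of Dnm1l were counted in shDRP1 libraries and 8619 in shRandom libraries. Among 13025 genes tested, 988 (7.59%) had a log2 fold change as low as that of Dnm1l or lower. The gene, ENSMUSG00000022789, spans bases 16312230 to 16358959 of GRCm38 chromosome 16 (minus strand), and no other counted gene overlaps its last 1000 bases.

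Within each group the lowest Dnm1l value was in the library with the fewest counts. The lowest shDRP1 value, 14.5 CPM in replicate 2, was in the shDRP1 library with the fewest counts, 12277622. The other shDRP1 libraries did not keep this order: replicate 3, with 18333694 counts, was at 18.1 CPM and replicate 1, with 16591621 counts, at 19.1 CPM. The lowest shRandom values, 67.1 CPM in replicate 1 and 68.0 CPM in replicate 5, were in the shRandom libraries with the fewest counts, 15702942 and 15882963. Without both shDRP1 replicate 2 and shRandom replicate 1 the log2 fold change of Dnm1l was -2.05. Depth differed between the libraries of a group, and its part in this order was not tested.

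On GRCm38, the receptor genes are Mff (ENSMUSG00000026150) at bases 82724890 to 82752394 of chromosome 1, plus strand, Fis1 (ENSMUSG00000019054) at bases 136953275 to 136966234 of chromosome 5, plus strand, Mief1 (ENSMUSG00000022412) at bases 80234018 to 80253371 of chromosome 15, plus strand, and Mief2 (ENSMUSG00000018599) at bases 60728398 to 60732951 of chromosome 11, plus strand. The fission factors of the inner and outer membrane are Mtfp1 (ENSMUSG00000004748) at bases 4091480 to 4095445 of chromosome 11, minus strand, Mtfr1l (ENSMUSG00000046671) at bases 134525550 to 134535387 of chromosome 4, minus strand, and Gdap1 (ENSMUSG00000025777) at bases 17145362 to 17164271 of chromosome 1, plus strand. The endocytic dynamin is Dnm2 (ENSMUSG00000033335) at bases 21424908 to 21507759 of chromosome 9, plus strand, and the actin nucleator is Spire1 (ENSMUSG00000024533) at bases 67488209 to 67610790 of chromosome 18, minus strand.

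The 4 receptor genes did not move alike. Mief2 fell to 48.5% of its shRandom mean, Mff and Fis1 fell by less and their groups overlapped, and Mief1 did not pass the test. The sum of the 4 was 186.0 ± 14.4 CPM in shDRP1 (SD, n = 5) and 236.8 ± 10.4 CPM in shRandom libraries (SD, n = 6), and the groups did not overlap.

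Mff, the main receptor for Drp1 in many cell types, was at 64.8, 65.2, 73.4, 67.7 and 57.4 CPM in shDRP1 replicates 1 to 5. In shRandom libraries it ran from 70.3 through a median of 89.3 to 107.4 CPM. One shDRP1 library, replicate 3, was above the lowest shRandom library, replicate 4. The log2 fold change was -0.44 (SE 0.09, edgeR adjusted p = 0.00093), and the mean in shDRP1 was 73.9% of that in shRandom.

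Fis1, a tail-anchored receptor first known from yeast, was at 82.2, 68.8, 93.6, 96.3 and 90.6 CPM in shDRP1 replicates 1 to 5. In shRandom libraries it ran from 95.02 through a median of 104.8 to 112.6 CPM. Replicate 4 of shDRP1 lay within the shRandom range and replicate 2 lay furthest below it. The log2 fold change was -0.26 (SE 0.08, edgeR adjusted p = 0.012). The call ended when libraries were scaled by their totals alone (log2 fold change -0.16, edgeR adjusted p = 0.075) or by the upper quartile (-0.18, edgeR adjusted p = 0.075).

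Mief1, which encodes MiD51, was at 23.8, 26.2, 25.2, 25.1 and 24.4 CPM in shDRP1 replicates 1 to 5. In shRandom libraries it ran from 23.3 through a median of 26.0 to 27.5 CPM, and all shDRP1 values lay inside that range. The log2 fold change was -0.04 (95% interval -0.19 to 0.11, edgeR adjusted p = 0.658), which bounds the shDRP1 level between 87.8% and 108.2% of the shRandom level. Its sign turned with other scalings, to 0.06 with library totals and 0.05 with the upper quartile.

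Mief2, which encodes MiD49, was at 9.40, 9.05, 11.5, 9.23 and 6.05 CPM in shDRP1 replicates 1 to 5. In shRandom libraries it ran from 15.7 through a median of 17.8 to 23.3 CPM. The groups did not overlap, and shDRP1 replicate 5 was the lowest. The log2 fold change was -1.04 (SE 0.15, edgeR adjusted p = 2.1e-05), and 48.5% of the shRandom mean was left. Within a library the ratio of Mief2 to Mief1 was 0.363 ± 0.0768 in shDRP1 (SD, n = 5) and 0.735 ± 0.139 in shRandom (SD, n = 6), ranging from 0.248 to 0.458 in shDRP1 and from 0.586 to 0.927 in shRandom libraries.

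Because each transcript is read once near its 3' end, tag counts were set side by side between genes without division by length; differences in priming between genes remain in them. Of the tags of the 4 receptors, Fis1 held 46.3%, Mff 35.4%, Mief1 13.5% and Mief2 4.85% on average in shDRP1 libraries, and Fis1 held 43.9%, Mff 37.4%, Mief1 10.8% and Mief2 7.86% in shRandom libraries. The share of Mief1 did not overlap between groups (12.4% to 15.5% in shDRP1 and 9.84% to 11.8% in shRandom libraries), nor did that of Mief2 (3.39% to 5.66% in shDRP1 and 6.94% to 9.28% in shRandom libraries). The shares of Fis1 and Mff overlapped.

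**Figure D2:**
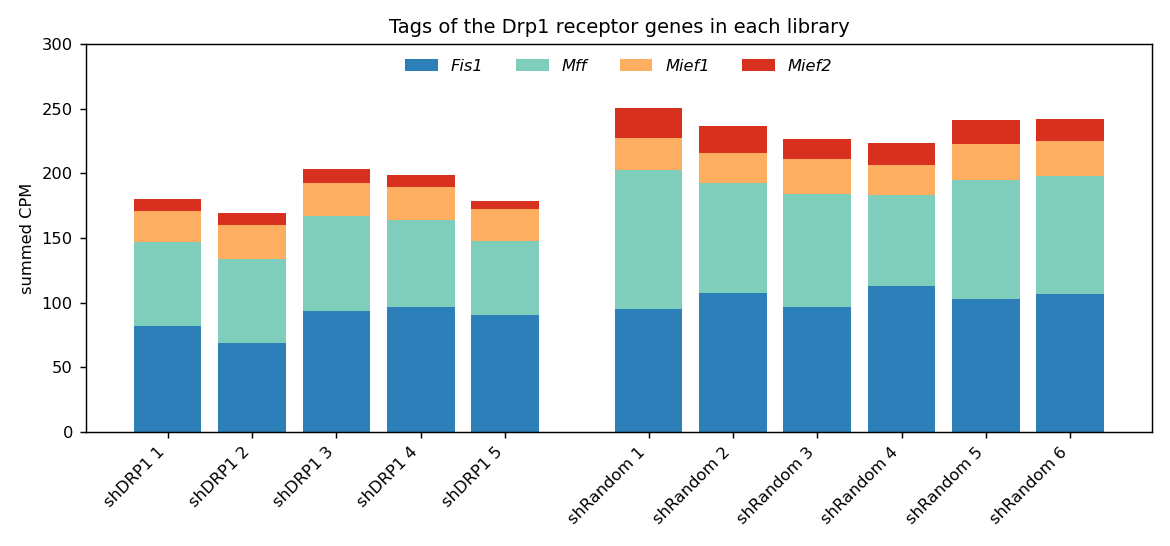
Summed CPM of Fis1, Mff, Mief1 and Mief2 in each library, stacked by gene, with the 5 shDRP1 libraries on the left and the 6 shRandom libraries on the right. The stacks reach 169.3 to 203.7 CPM in shDRP1 and 223.1 to 250.9 CPM in shRandom libraries; the Mief1 blocks are of like height and the Mief2 blocks are smaller in shDRP1.

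Dnm1l dropped further than its receptors, so the ratio of Dnm1l to summed receptor tags was lower in every shDRP1 library. Against single genes this was the common case: Dnm1l over another gene was lower in shDRP1 with no overlap for 87.8% of the 13024 other genes tested, and higher with no overlap for 5.32%. Dnm1l over the sum of the 4 receptors was 0.106, 0.0859, 0.0887, 0.106 and 0.115 in shDRP1 replicates 1 to 5, and ran from 0.268 through a median of 0.352 to 0.377 in shRandom libraries. These ratios do not depend on how a library is scaled, and they were not tested since the genes were chosen with results known. Dnm1l over Mff was 0.287 ± 0.0537 in shDRP1 (SD, n = 5) and 0.906 ± 0.200 in shRandom (SD, n = 6), and Dnm1l over Fis1 was 0.216 ± 0.0155 in shDRP1 and 0.758 ± 0.0716 in shRandom. Dnm1l over Mief1 was 0.751 ± 0.121 in shDRP1 and 3.09 ± 0.447 in shRandom, so Mief1 tags outnumbered Dnm1l tags in all shDRP1 libraries and in no shRandom library. The ratio of Dnm1l to Mief2, 2.18 ± 0.747 in shDRP1 and 4.33 ± 0.973 in shRandom, overlapped between the groups: shDRP1 replicate 5 was at 3.40 and shRandom replicate 1 at 2.88.

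**Figure D3:**
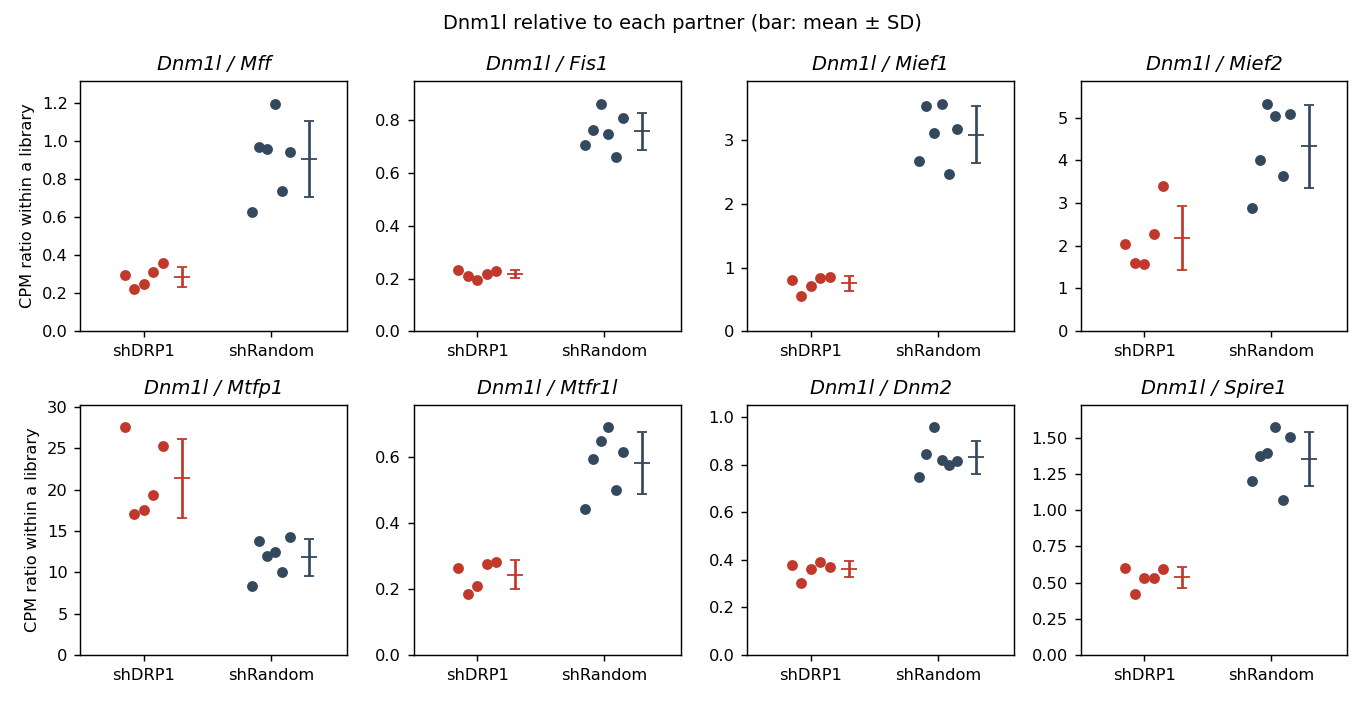
Ratio of Dnm1l CPM to the CPM of each partner within a library, on linear axes from 0; red points are shDRP1 libraries, dark points are shRandom libraries, and the bars give mean and SD. The ratio is lower in shDRP1 with no overlap in 6 of 8 panels, against 87.8% of all other genes tested, overlaps for Mief2, and is higher for Mtfp1 (17.1 to 27.5 in shDRP1 and 8.37 to 14.3 in shRandom libraries).

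Mtfp1, a protein of the inner membrane whose loss is known to leave mitochondria elongated, fell further than Dnm1l. It was at 0.696, 0.851, 1.03, 1.08 and 0.814 CPM in shDRP1 replicates 1 to 5, and ran from 6.00 through a median of 6.75 to 8.02 CPM in shRandom libraries. The groups were far apart, with 80 reads in shDRP1 and 727 in shRandom libraries. The log2 fold change was -2.89 (SE 0.15, edgeR adjusted p = 3.9e-10), which left 13.2% of the shRandom mean, and 5.72% of all genes tested had a value as low or lower. Between 11 and 23 reads were counted per shDRP1 library, which limits the precision of each value.

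Mtfr1l, an outer membrane protein of the mitochondrial fission regulator family, had the highest level of the 10 genes in shRandom libraries. It was at 72.7, 79.2, 87.0, 76.1 and 73.1 CPM in shDRP1 replicates 1 to 5, and ran from 122.3 through a median of 137.5 to 152.5 CPM in shRandom libraries. The groups did not overlap, and 56.8% of the shRandom mean was left (log2 fold change -0.82, SE 0.07, edgeR adjusted p = 8.9e-08).

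Gdap1, an outer membrane protein that promotes fission and is mutated in a form of Charcot-Marie-Tooth neuropathy, was the one gene of the group that rose. It had 13, 9, 15, 17 and 13 reads in shDRP1 replicates 1 to 5 (0.696 to 0.801 CPM), against 2 reads in all shRandom libraries together, both in replicate 4. The ratio of shDRP1 to shRandom was 41.4 (95% exact binomial bounds of 11.01 and 348.6, which cover counting error only because PCR copies were not told apart by molecular identifiers), with an edgeR adjusted p of 1.5e-06. Without shRandom replicate 4 no shRandom read remained, and the level in shDRP1 was 23.002-fold that of a floor of 3 reads over the remaining shRandom libraries. That figure takes the 67 shDRP1 reads without error and leaves out variation between libraries, so it is not a lower limit. Gdap1 passed the filter on low counts through its level in shDRP1 libraries, so that it had to differ once it was tested, and its level stayed under 1 CPM.

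Dnm2 and Spire1, which act beside Drp1, were both lower in shDRP1 libraries. Dnm2 is a classical dynamin of endocytosis whose part in mitochondrial division is debated. It was at 50.4, 47.7, 49.9, 53.5 and 55.6 CPM in shDRP1 replicates 1 to 5, and ran from 84.9 through a median of 93.5 to 105.5 CPM in shRandom libraries. The groups did not overlap, and 54.4% of the shRandom mean was left (log2 fold change -0.88, SE 0.07, edgeR adjusted p = 5.7e-08). The ratio of Dnm2 to Dnm1l within a library was 2.79 ± 0.287 in shDRP1 (SD, n = 5) and 1.21 ± 0.0961 in shRandom (SD, n = 6). Tmed1 lies on the opposite strand across the last 1000 bases of Dnm2, and the strand setting of the counting is not given in the sources used here, so reads of the pair may be mixed; Tmed1 itself averaged 39.0 CPM in shDRP1 and 41.1 CPM in shRandom libraries (edgeR adjusted p = 0.319).

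Spire1 encodes an actin nucleator, of which a mitochondrial isoform works with the formin Inf2 at division sites. It was at 31.8, 34.6, 33.9, 39.4 and 34.6 CPM in shDRP1 replicates 1 to 5, and ran from 53.5 through a median of 58.5 to 63.4 CPM in shRandom libraries. The groups did not overlap, and 59.8% of the shRandom mean was left (log2 fold change -0.74, SE 0.07, edgeR adjusted p = 2.5e-07). Tags near the 3' end do not separate the isoforms of any of these genes unless they end at different sites.

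**Figure D4:**
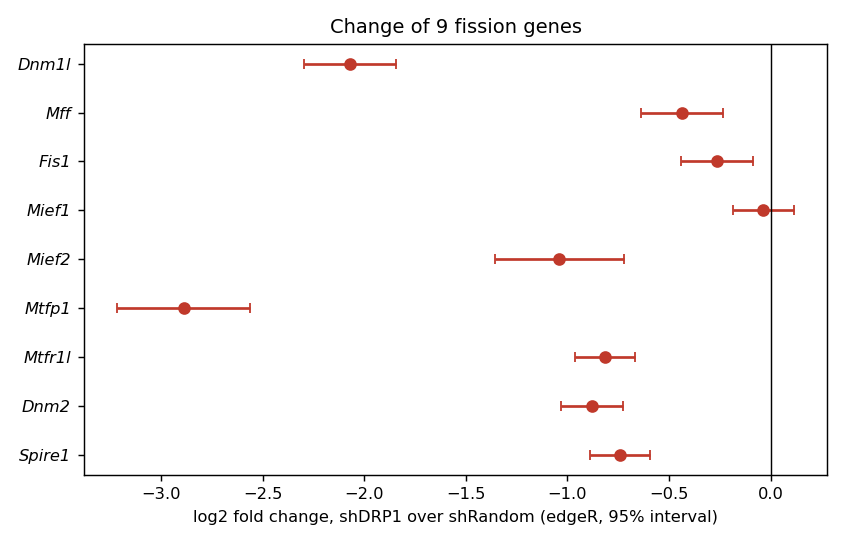
Log2 fold change of shDRP1 over shRandom for 9 fission genes, with 95% intervals from the edgeR fit; Gdap1, with 2 shRandom reads, is not drawn. The intervals of Mtfp1 (-3.22 to -2.56) and Dnm1l (-2.30 to -1.84) lie lowest, and only that of Mief1 crosses 0.

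The order of the levels differed between the groups. In shDRP1 libraries it was Fis1, Mtfr1l, Mff, Dnm2, Spire1, Mief1, Dnm1l, Mief2, Mtfp1 and Gdap1, and in shRandom libraries Mtfr1l, Fis1, Dnm2, Mff, Dnm1l, Spire1, Mief1, Mief2, Mtfp1 and Gdap1. Dnm1l was in place 7 in shDRP1 libraries and in place 5 in shRandom libraries. In shDRP1 the ranges over the libraries overlapped for Fis1 with Mtfr1l and with Mff, Mtfr1l with Mff, and Mtfp1 with Gdap1. In shRandom they overlapped for Fis1 with Dnm2 and with Mff, Dnm2 with Mff and with Dnm1l, Mff with Dnm1l, and Mief1 with Mief2. Within every single library Mtfr1l was above Mff in shDRP1, and Fis1 was above Dnm2 and Mief1 above Mief2 in shRandom.

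Genes around the fission machinery were described by 7 lists without the 10 genes above; Dnm1, Dnm3, Inf2, Mfn1, Mfn2 and Opa1 each stand in 2 lists. Of 15 tested genes of other fission factors 5 were lower and 5 higher (median log2 fold change -0.11, against 0.03 over all genes tested); with the replicate number as a block 4 were lower and 2 higher. Sh3glb1, endophilin B1, which bends membranes, was at 481.5 to 517.3 CPM in shDRP1 and 2089 to 2209 CPM in shRandom libraries (log2 fold change -2.13, edgeR adjusted p = 7.4e-14). Rab7 and Tbc1d15, a small GTPase of late endosomes and a protein that stimulates its GTP hydrolysis, fell by 0.43 and fell by 0.44 on the log2 scale. Of the other dynamins, Dnm3 was at 14.3 CPM in shDRP1 and 4.28 CPM in shRandom libraries (log2 fold change 1.74).

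Of 27 genes for kinases, phosphatases and their anchors that act on Drp1, 9 were lower and 11 higher (median 0.12). Prkaca, the catalytic subunit of protein kinase A, which phosphorylates Drp1 at an inhibitory site, averaged 150.2 ± 6.94 CPM in shDRP1 (SD, n = 5) and 339.3 ± 19.1 CPM in shRandom libraries (SD, n = 6; log2 fold change -1.18, edgeR adjusted p = 2.0e-10). The calmodulin kinases went opposite ways: Camk2a was at 3.30 CPM in shDRP1 and 99.2 CPM in shRandom libraries, and Camk2d was at 61.5 CPM in shDRP1 and 37.0 CPM in shRandom libraries. The kinase Pim1 fell by 1.84 on the log2 scale. Of the SUMO and ubiquitin enzymes, 7 were tested, 1 of which was lower and 1 higher (median 0.05; 1 lower and 3 higher with library totals or the upper quartile). The ligase Mul1 had a log2 fold change of -0.65 (edgeR adjusted p = 2.5e-06) and the mitochondrial ubiquitin ligase March5 one of 0.26 (0.0070).

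Of 14 tested actin and myosin genes of the fission site, 7 were higher, none lower and 7 not past the threshold (median log2 fold change 0.40). With library totals or the upper quartile 11 were higher, and there 40.0% and 39.2% of all genes tested were higher and 28.8% and 29.3% lower. Inf2, the formin partner of Spire1, had a log2 fold change of -0.12 (edgeR adjusted p = 0.111). Cofilin (Cfl1), which severs actin filaments, averaged 954.4 ± 63.7 CPM in shDRP1 (SD, n = 5) and 508.4 ± 58.7 CPM in shRandom libraries (SD, n = 6; edgeR adjusted p = 1.6e-07). The non-muscle myosin Myh10 averaged 207.9 CPM in shDRP1 and 69.1 CPM in shRandom libraries, the mitochondrial myosin Myo19 had a log2 fold change of 0.86, and the actin-depolymerizing factor Dstn one of 0.78.

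Genes of fusion and of the inner membrane were lower in part. Of 13 tested, 8 were lower and none higher (median -0.20), and 5 were lower with library totals or the upper quartile, each beside the shares of all genes given above. Opa1, the inner membrane fusion GTPase, averaged 35.1 ± 2.53 CPM in shDRP1 (SD, n = 5) and 51.7 ± 2.90 CPM in shRandom libraries (SD, n = 6; log2 fold change -0.56, edgeR adjusted p = 3.2e-06). The rhomboid protease Parl, the prohibitin Phb2 and the outer membrane fusion GTPase Mfn1 had log2 fold changes of -0.51, -0.45 and -0.36. Drp1 also divides peroxisomes, and of 8 genes of peroxisome division and tail-anchor import 4 were lower and 2 higher (median -0.21). Pex11a rose to 21.2 CPM in shDRP1, against 12.9 CPM in shRandom libraries, and Pex19, the carrier of tail-anchored proteins, had a log2 fold change of 0.42. Pex3, its docking partner, and Acbd4 had log2 fold changes of -0.67 and -0.34.

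Other members of the dynamin superfamily were mostly past the threshold, with 6 of 16 lower and 9 higher (median 0.64). Mx2 (2.67 CPM in shDRP1 and 0.116 CPM in shRandom libraries), Gbp2 and Gbp3 passed the filter on low counts through their level in shDRP1 libraries. Their higher calls are not free evidence about the list, yet all of them are in these counts and the median. The interferon-induced guanylate binding proteins Gbp2 and Gbp3 averaged 16.4 and 4.80 CPM in shDRP1, against 0.772 and 0.387 CPM in shRandom libraries. How reads were split among the near-identical Gbp genes is not known, so their values are uncertain. Atl3, a GTPase that fuses reticulum membranes, had a log2 fold change of 0.91 and Ehd4, of endosomal recycling, one of -1.25. All calls on these lists are to be read against the 67.1% of all genes that passed the threshold in either direction.

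**Figure D5:**
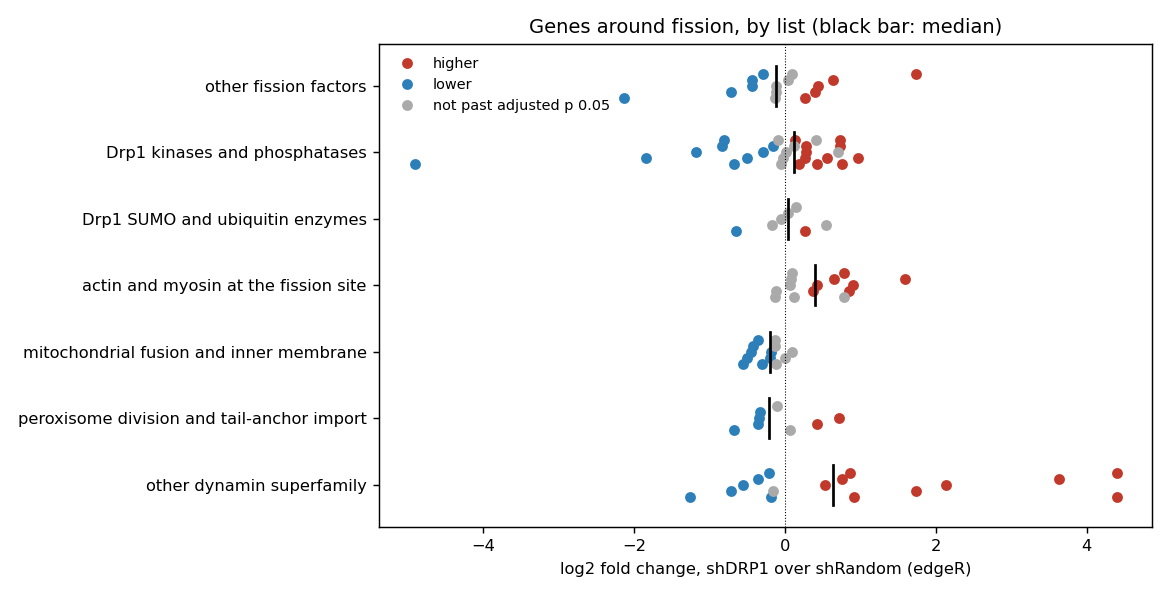
Log2 fold change of shDRP1 over shRandom for each tested gene of 7 lists around fission; red points are higher, blue points lower and grey points not past an adjusted p of 0.05, and the black bar is the median of the list. The actin and myosin list has 7 red and no blue point among 14, and the fusion list 8 blue and no red point among 13. Over all genes tested 33.9% were higher, 33.3% lower and 67.1% past the threshold in either direction.

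The genes whose pattern was most like that of Dnm1l were found by Pearson's r of log2(CPM + 0.5) over the 11 libraries, among 8315 other genes with a mean of at least 10 CPM. They were Trib1, Ciapin1, Rab14, Cpne8 and Ablim1, each with r of 0.996 or 0.997. This is a description with no p, since the difference between the groups carries most of it: 1190 genes had an r of at least 0.95. Their log2 fold changes were -1.31, -0.92, -0.82, -1.82 and -1.43. With the mean of each group subtracted, the genes most like Dnm1l were Dhx40, Spout1, Gm2000, Tmem160 and Arl13b, with r from 0.954 to 0.967, and 10 genes reached 0.95. Of these 5, Dhx40 was higher in shDRP1 (log2 fold change 0.31), Gm2000 and Tmem160 were lower (-0.54 and -0.30), and Spout1 and Arl13b did not pass the threshold (edgeR adjusted p = 0.204 and 0.131). The part of library depth in these patterns was not tested.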

How the data were processed

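The 5 shDRP1 and 6 shRandom libraries were made by QuantSeq, a 3' tag method. Samples were grouped by the hairpin in their titles. The series text names BlueBee software for the alignment. Aligner, counter, strand setting and annotation: not given in the sources used here. GRCm38, mm10 and DESeq2 (version 1.22.2) are named, per the submitters' processing notes. The authors deposited raw counts per gene for 15113 genes, which were used for every test, and a second table of signal, in which each library's counts had been divided by a single size factor, used only to check that scaling. Of the gene identifiers, 15080 matched a symbol and 33 did not. Positions come from GENCODE M21 on GRCm38.

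The test was edgeR's (version 4.0.16, R 4.3.3) quasi-likelihood test (filterByExpr, which left 13025 genes, TMM scaling, robust fit, the group as the only term, Benjamini-Hochberg adjustment, threshold 0.05). CPM uses TMM-scaled library sizes; a standard error is the log2 fold change over the square root of F, and intervals of counts cover counting error only. The steps were tested on simulated data. Alternatives were other scalings, all genes kept without a filter, limma-voom (limma version 3.58.1), DESeq2 (version 1.42.0), the replicate number as a block and leaving out libraries. Chi-square over degrees of freedom between libraries of a group ran from 5.03 to 57.2, so none was counted as a repeat. The members and lists were chosen with earlier results of these data known. The rule for named genes took all 10 fission genes, the 4 genes with the smallest adjusted p of each pathway list (some of the SUMO and ubiquitin list are not reported here), the marker lists, and the 5 genes most like Dnm1l; Tmed1 was named for its position after its values were seen.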

Additional observations from a re-analysis of the deposited data

Results flagged for a closer look

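Single libraries stood apart from the rest of their group in 7 of 116 checks of named genes by group; chance alone flags about 1 in 20 groups. The 2 reads of Gdap1 in shRandom libraries were both in replicate 4 (0.111 CPM, with all others at 0). The same library was highest for Ttn (854.3 CPM, next 420.2 CPM) and lowest for Myog (952.2 CPM, next 1320 CPM). In shDRP1, Ttn was lowest in replicate 3 (8.29 CPM, next 11.6 CPM). In shRandom replicate 1, Des (635.3 CPM, next 857.8 CPM) and Dstn (186.5 CPM, next 278.3 CPM) were lowest, and in shRandom replicate 5 Lum was highest (0.645 CPM, next 0.382 CPM). None of the other 9 fission genes had such a library.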

How the results depend on the processing

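The 8 lower fission genes and the 1 higher one kept their direction in all 19 alternatives run, and 7 or 8 of them were called lower in each. Dnm1l ran from -2.12 to -1.97 (log2 fold change) and Mtfp1 from -2.97 to -2.79. With library totals alone and with the upper quartile, which shift the median gene to 0.13 and 0.12 (0.03 with TMM), Fis1 was no longer past the threshold (adjusted p = 0.075 with each, edgeR), and Mief1 turned to log2 fold changes of 0.063 and 0.048. Under both of these scalings 4 SUMO and ubiquitin genes were called (2 with TMM), 11 actin and myosin genes (7) and 5 fusion genes (8). With the replicate number as a block, 6 other fission factors were called, 4 lower and 2 higher (10 without it, 5 lower and 5 higher), and Dnm1l was at -2.05. The labels do not say whether same-numbered libraries belong together. Deviations of same-numbered libraries correlated between -0.18 and 0.36, and 1 of 10 libraries correlated best with its own number. So few pairs cannot decide whether the numbers mark a pairing. Leaving out 1 library at a time ended no call on a fission gene (Fis1 adjusted p 0.0076 to 0.033, edgeR). Gdap1 rested on 2 shRandom reads, both in replicate 4, and ran from 4.67 to 4.94 when any other library was left out. Without that replicate its level in shDRP1 was 23.002-fold that of a floor of 3 reads, a figure without the error of the shDRP1 reads.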
